A study of Mus musculus with 46 samples.

Results

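The 4 genes Cubn, Lrp2, Amn and Dab2 were taken by symbol from the 7 deposited count tables, of which 6 list 21812 genes. All 4 were present in all 7 tables and passed the filter on low counts in each comparison. Cubilin (Cubn) is a large peripheral membrane receptor that has no transmembrane segment of its own. Amnionless (Amn) anchors it in the membrane and brings it to the cell surface. Megalin (Lrp2) is a giant transmembrane receptor of the LDL receptor family, and Dab2 is the cytoplasmic adaptor that links its tail to clathrin. Together they take up proteins, lipoproteins and vitamin carriers in the visceral endoderm of the early mouse embryo, in the yolk sac and in the kidney proximal tubule. Dab2 is also widely used as a marker of primitive endoderm.

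The samples were 46 mouse RNA-seq libraries in 19 groups, made from extended pluripotent stem cells (EPSC, also labelled EPS) and their derivatives. In the tables read here, EPSC were cultured in a medium that induces primitive endoderm (PrE), called PrEdiff below. A pair of groups was sorted from that culture on CD140 as PrE-E (CD140+) and EPI-E (CD140-), 2 libraries each. A pair of embryoid parts, visceral endoderm (VE) and epiblast (EPI), was separated with pronase E from 5-day embryoids made from EPSC and GBL-1, a component the labels do not explain, with 6 libraries each. Then 3 perturbations were set up in PrEdiff with 2 libraries per group: genotype Virma_cKO against WT, genotype Mettl3_cKO against its own WT, and treatment siIgf2bp3 against siNC. Virma and Mettl3 belong to the enzyme complex that writes N6-methyladenosine (m6A) on RNA, and Igf2bp3 is an RNA-binding protein that reads it. In a time course, PrEdiff and EPS cells were held in the transcription inhibitor actinomycin D and collected at 0, 1, 2 and 3 h, with 2 libraries per time. The last table held 2 libraries of untreated EPSC. The labels name no Cre driver, clone or guide, and they do not say whether replicates came from separate cultures, so p-values measure only the spread between these libraries. Counting error was the larger part of that spread in the actinomycin D table, where the chi-square per degree of freedom between replicates was 1.19 to 1.30.

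Library totals were 6854433 to 22280769 counts. The labels were checked first against the targeted genes, in CPM (counts scaled to a common library size). Virma averaged 61.1 ± 9.25 CPM in Virma cKO libraries and 108 ± 2.19 CPM in WT libraries (SD, n = 2 each). Mettl3 averaged 36.0 ± 1.57 CPM in libraries labelled Mettl3 cKO and 36.3 ± 1.55 CPM in their WT libraries. Igf2bp3 averaged 114 ± 4.10 CPM in libraries labelled siIgf2bp3 and 106 ± 10.3 CPM in siNC libraries. Igf2bp3 averaged 41.6 CPM in Virma cKO libraries and 99.5 CPM in Virma WT libraries. Mettl3 was not lower under the Mettl3 cKO label, and Igf2bp3 was not lower under the siIgf2bp3 label. For Mettl3, a count over a whole gene does not check a deleted exon. The siIgf2bp3 label names a treatment and no deletion, and its counts showed no lowering of Igf2bp3. The Mettl3 cKO and siIgf2bp3 libraries are therefore named by label below. A swap of labels or columns within either pair was not tested, and it would turn the sign of every change given under that label. The 8 primitive endoderm markers held 0.157% to 0.162% of counts in PrE-E and 0.000640% to 0.000688% in EPI-E, where Sox17 was at 0. They include Pdgfra, whose product CD140 was used for that sort, so they are not a fully independent check of it. The same markers held 0.0470% to 0.0554% in embryoid VE and 0.00171% to 0.00406% in embryoid EPI.

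The promoter windows of the 4 genes are shown because the genes rose together in endoderm while differing in base composition. Each runs from 250 bases before to 50 bases after a start site, 5′ to 3′ on the gene's strand, from RefSeq on GRCm38.p6. The capitals mark GATAA or its reverse complement TTATC, the core letters of the motif bound by GATA factors.
Cubn, chr2:13491827-13492126, minus strand: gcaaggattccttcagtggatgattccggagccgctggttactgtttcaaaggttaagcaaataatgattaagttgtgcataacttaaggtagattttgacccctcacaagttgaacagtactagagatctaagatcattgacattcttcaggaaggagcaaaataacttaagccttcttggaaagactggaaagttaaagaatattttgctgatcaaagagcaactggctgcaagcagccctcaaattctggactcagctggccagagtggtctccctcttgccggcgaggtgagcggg
Lrp2, chr2:69585980-69586279, minus strand: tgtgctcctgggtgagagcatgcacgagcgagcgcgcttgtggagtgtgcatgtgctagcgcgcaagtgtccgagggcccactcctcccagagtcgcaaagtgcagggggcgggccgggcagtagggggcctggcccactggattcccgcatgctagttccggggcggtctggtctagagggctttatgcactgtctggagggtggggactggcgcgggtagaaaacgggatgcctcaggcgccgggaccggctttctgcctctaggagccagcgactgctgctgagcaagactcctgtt
Amn, chr12:111270846-111271145, plus strand: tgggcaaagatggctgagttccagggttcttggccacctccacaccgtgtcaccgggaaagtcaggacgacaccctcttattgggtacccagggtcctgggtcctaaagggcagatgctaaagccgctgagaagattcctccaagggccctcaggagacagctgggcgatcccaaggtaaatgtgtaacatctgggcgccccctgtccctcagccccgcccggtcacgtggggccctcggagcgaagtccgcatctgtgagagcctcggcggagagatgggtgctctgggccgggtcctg
Dab2, upstream start, chr15:6299539-6299838, plus strand: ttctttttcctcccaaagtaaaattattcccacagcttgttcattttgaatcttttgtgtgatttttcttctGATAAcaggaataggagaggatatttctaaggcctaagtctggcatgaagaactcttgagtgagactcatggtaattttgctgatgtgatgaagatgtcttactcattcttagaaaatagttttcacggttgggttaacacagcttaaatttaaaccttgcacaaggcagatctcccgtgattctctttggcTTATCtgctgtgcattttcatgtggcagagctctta
A second Dab2 window lies at chr15:6386498-6386797. GATAA, read on either strand, occurred only in the upstream Dab2 window, at positions -178 and 15 from the start, and the matches do not overlap. It occurs in 25.4% of 32851 mouse promoter windows of this length. ACAAT, the core letters of the SOX motif, occurred in none of the 5 windows and in 31.0% of all windows. GTTAAT, part of the HNF1 motif, occurred once, at -65 in the second Dab2 window, and in 7.1% of all windows. Cubn had 44.3% G and C and 5 CpG sites in its window, and the upstream Dab2 window had 37.7% and 2. Lrp2 had 65.0% and 20 CpG sites, Amn had 62.3% and 15, and the second Dab2 window had 59.3% and 19. The median window has 52.7% and 7 CpG sites. These are letters in a window and were not tested as binding sites.

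All 4 genes were highest in the endoderm libraries, but not in the same ones. Tables were normalised separately, so levels from different tables are set side by side without a test. Cubn and Lrp2 were highest in sorted PrE-E, at 5369 ± 39.7 and 5856 ± 149 CPM (SD, n = 2). In embryoid VE they had 2377 ± 48.4 and 3727 ± 76.6 CPM (SD, n = 6). Dab2 and Amn were highest in embryoid VE, at 4696 ± 261 and 810 ± 61.0 CPM, and had 3469 ± 16.6 and 77.4 ± 1.33 CPM in PrE-E. Of the 4, Amn had the widest gap between these libraries. Per kilobase of exon, Dab2 was the most abundant of the 4 in PrE-E at 665 ± 3.19 CPM per kb, above Cubn at 477 ± 3.52, Lrp2 at 354 ± 8.97 and Amn at 45.5 ± 0.780. In embryoid VE the order per kilobase was Dab2 at 900 ± 50.1, Amn at 476 ± 35.9, Lrp2 at 225 ± 4.63 and Cubn at 211 ± 4.30 CPM per kb.

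For Cubn, the control PrEdiff cultures came below the endoderm libraries, at 2278 ± 44.5 CPM in Mettl3 WT, 1294 ± 163 in siNC, 1040 ± 14.0 in Virma WT and 372 ± 8.34 in PrEdiff at 0 h. Cubn then stood at 59.1 ± 9.14 CPM in embryoid EPI, 41.6 ± 7.10 in EPSC, 5.99 ± 0.385 in EPS at 0 h and 3.70 ± 0.391 in EPI-E. The ranges of embryoid EPI and EPSC overlapped for Cubn, and those of the other neighbours did not. Lrp2 had 1631 ± 2.69 CPM in Mettl3 WT, then 997 ± 91.8 in siNC and 959 ± 41.7 in Virma WT, which overlapped. In EPI-E, Lrp2 was the most abundant of the 4, at 235 ± 7.11 CPM. That lay above its levels of 105 ± 18.2 in embryoid EPI, 64.1 ± 6.85 in EPSC, 55.4 ± 1.06 in PrEdiff at 0 h and 14.4 ± 0.866 in EPS at 0 h. Dab2 had 614 ± 29.2 CPM in Virma WT, 394 ± 7.85 in Mettl3 WT, 281 ± 36.5 in embryoid EPI, 184 ± 30.8 in siNC and 106 ± 0.0231 in PrEdiff at 0 h. It was lowest in EPSC at 18.4 ± 1.25, EPI-E at 8.58 ± 1.64 and EPS at 0 h at 6.64 ± 1.34 CPM, of which the last pair overlapped. Amn had 128 ± 35.6 CPM in siNC, 77.7 ± 0.602 in Mettl3 WT, 24.4 ± 4.54 in embryoid EPI, 14.1 ± 1.83 in Virma WT and 11.1 ± 0.847 in PrEdiff at 0 h. The siNC level stood above its 77.4 CPM in PrE-E, and the Mettl3 WT level within an SD of it. It had 3.73 ± 0.537 CPM in EPSC, 2.14 ± 0.0766 in EPS at 0 h and 0.364 ± 0.515 in EPI-E.

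**Figure D1:**
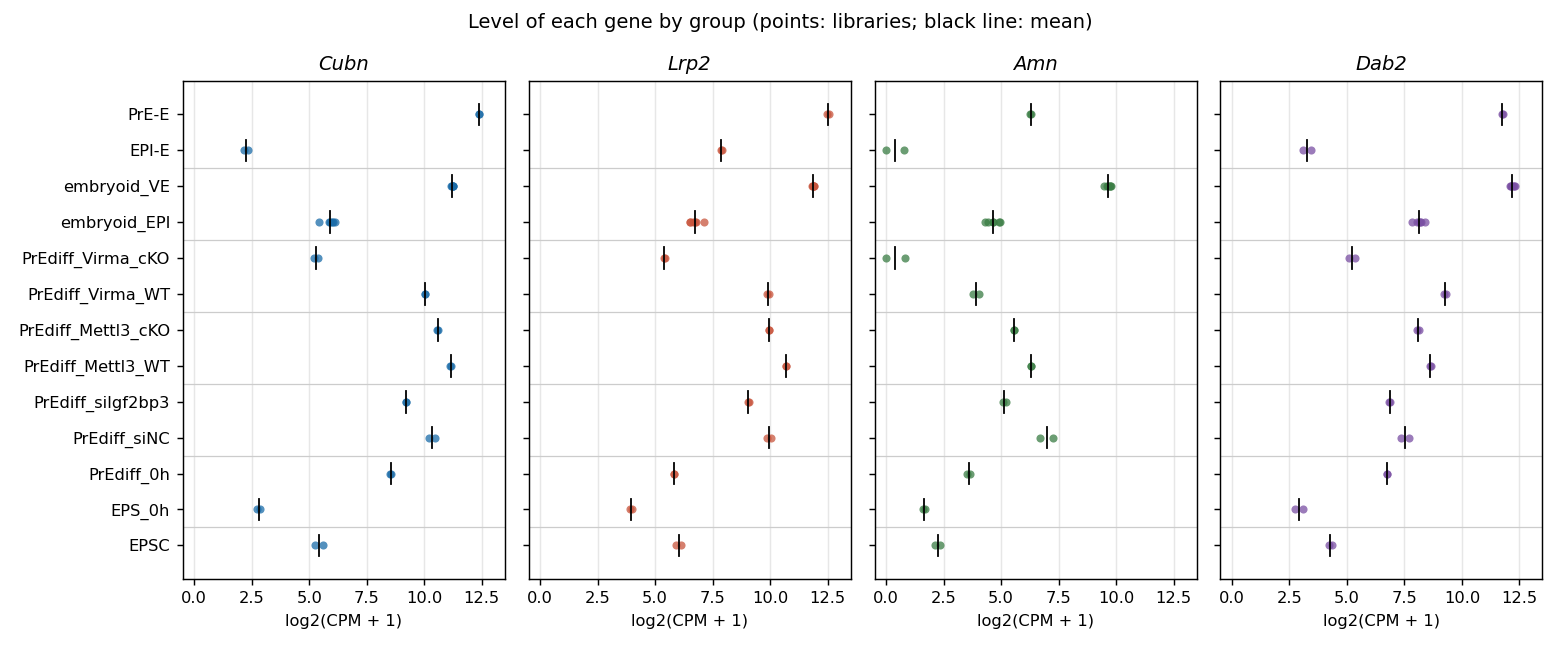
Level of each gene, as log2(CPM + 1), in 13 groups of libraries. Points are libraries and black lines are group means; Cubn and Lrp2 reach their highest values in PrE-E, and Amn and Dab2 in embryoid VE.

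The sorted fractions differed in all 4 genes, with changes that ranged over a wide span. Cubn had 69249 and 83773 counts in PrE-E libraries, against 60 and 45 counts in EPI-E libraries. Dab2 had 45131 and 53664 counts in PrE-E, against 112 and 128 in EPI-E. Lrp2 had 74557 and 92518 counts in PrE-E, against 3620 and 3021 in EPI-E. The groups lay far apart for each gene, but Lrp2 had many more counts in EPI-E than its partners. Amn had 1015 and 1186 counts in PrE-E, against 11 and 0 in EPI-E. By edgeR's quasi-likelihood test with Benjamini-Hochberg adjustment, used throughout with a threshold of 0.05, all 4 were called higher, as were 28.3% of all genes tested. The log2 change was 10.44 ± 0.07 (SE) for Cubn (adjusted p = 8.20e-18), the largest of 12423 genes. It was 8.65 ± 0.09 for Dab2 (adjusted p = 5.98e-16), 7.20 ± 0.40 for Amn (adjusted p = 9.84e-09) and 4.64 ± 0.05 for Lrp2 (adjusted p = 5.74e-16). The 95% intervals of Cubn, Dab2, Amn and Lrp2 did not overlap one another, but they rest on 2 libraries per group. With single libraries left out, Amn was at 6.48 to 9.07 and Dab2 at 8.46 to 8.84. The order of Dab2 and Amn was therefore not settled. Within a library, Lrp2 had 1.08 and 1.10 counts per Cubn count in PrE-E, against 59.8 and 66.4 in EPI-E. With 2 libraries per group an exact permutation test cannot go below p = 0.333, so such ratios are given without one. The sort used CD140, the product of Pdgfra, and none of the 4 genes.

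In embryoids the membrane components rose by nearly the same amount and Dab2 by less. Cubn had 2319 to 2437 CPM in the 6 VE libraries (median 2374), against 42.5 to 69.5 CPM in the 6 EPI libraries (median 60.3). Lrp2 had 3629 to 3833 CPM in VE (median 3723), against 89.2 to 139 in EPI (median 101). Amn had 705 to 870 CPM in VE (median 827), against 18.7 to 29.9 in EPI (median 24.2). The parts did not overlap for any of the 4, and the share of all genes without overlap is not given here. Dab2 had 4363 to 5088 CPM in VE (median 4671), against 227 to 337 in EPI (median 281), so it was the most abundant of the 4 in both parts. The log2 change was 5.32 ± 0.08 for Cubn (adjusted p = 7.59e-21), 5.14 ± 0.09 for Lrp2 (adjusted p = 1.83e-20) and 5.03 ± 0.10 for Amn (adjusted p = 1.11e-19). For Dab2 it was 4.06 ± 0.07 (adjusted p = 5.84e-20). All 4 were called higher, as were 34.5% of genes tested.

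The ratios between genes in 1 library need no scaling and tested this directly, over 6 pairs of genes. Dab2 per Cubn was 1.97 ± 0.0778 in VE and 4.85 ± 0.996 in EPI (SD, n = 6 each), and no VE library overlapped an EPI library. The difference of the log2 ratio was -1.27 for Dab2/Cubn, -1.09 for Dab2/Lrp2 and -0.99 for Dab2/Amn. Each had an exact two-sided permutation p of 0.0021645, the smallest that 6 against 6 allows, and 0.00433 after adjustment over the 6 pairs. The ratio was lower in 6 of 6 VE libraries in each case. The 3 membrane components showed no such shift past the threshold. The VE minus EPI difference was -0.18 for Lrp2/Cubn (adjusted exact permutation p = 0.218), -0.28 for Amn/Cubn (adjusted exact permutation p = 0.0909) and -0.09 for Amn/Lrp2 (adjusted exact permutation p = 0.483). Without EPI replicate 4 the Amn/Cubn difference was -0.35 and passed, with an adjusted exact permutation p of 0.0260. Lrp2 per Cubn was very even among VE libraries, at 1.57 ± 0.0123, and ranged from 1.48 to 2.45 among EPI libraries.

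Before actinomycin D, PrEdiff exceeded EPS in all 4 genes, again unequally. Cubn had 7079 and 7000 counts in PrEdiff, against 132 and 125 in EPS. Dab2 had 1995 and 2037 counts in PrEdiff, against 120 and 166 in EPS. Lrp2 had 1025 and 1075 in PrEdiff, against 317 and 302 in EPS. Amn had 196 and 223 in PrEdiff, against 44 and 48 in EPS. No PrEdiff library overlapped an EPS library in any of them, but the share of all genes without overlap is not given here. The log2 change was 5.93 ± 0.05 for Cubn (adjusted p = 5.27e-276), 3.98 ± 0.06 for Dab2 (adjusted p = 8.44e-187), 2.31 ± 0.14 for Amn (adjusted p = 3.34e-43) and 1.93 ± 0.06 for Lrp2 (adjusted p = 5.13e-98). All 4 were called higher, as were 37.6% of genes tested. These p-values rest on the narrow spread of this table. The order Cubn, Dab2, Amn, Lrp2 was that of the estimates in the sorted fractions, where the order of Dab2 and Amn was not settled. The PrEdiff cells of this table had 0.149 ± 0.00621 Lrp2 counts per Cubn count (SD, n = 2). The other control PrEdiff cultures had 0.922 ± 0.0276 in Virma WT, 0.716 ± 0.0152 in Mettl3 WT and 0.772 ± 0.0265 in siNC. The PrEdiff count columns of the actinomycin D table are headed PrE2, a name the other PrEdiff columns do not carry and the headers do not explain. The labels name 2 library kits for all samples and not which library used which. Kit, culture and whatever PrE2 stands for therefore cannot be told apart across tables.

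All 4 genes fell in Virma cKO cultures, to a small part of their WT counts. Cubn had 488 and 429 counts in Virma cKO, against 10473 and 11824 in WT. Lrp2 had 501 and 483 counts in Virma cKO, against 9861 and 10671 in WT. Dab2 had 389 and 471 in Virma cKO, against 6330 and 6810 in WT. The cKO libraries lay far below both WT libraries in each gene. Amn had 9 and 0 counts in Virma cKO, against 128 and 177 in WT, so its fold rests on few reads. The log2 change was -4.75 ± 0.08 for Cubn (adjusted p = 1.83e-31), a 26.9-fold fall, and -4.53 ± 0.08 for Lrp2 (adjusted p = 2.28e-31). It was -4.69 ± 0.55 for Amn (adjusted p = 2.40e-08) and -4.08 ± 0.09 for Dab2 (adjusted p = 4.85e-28), a 16.9-fold fall. All 4 were called lower, as were 18% of genes tested, and by the size of the fall they ranked 6, 7, 10 and 17 of 13113 genes. In bulk libraries, fewer cells of a type and less RNA per cell cannot be told apart. The primitive endoderm markers held 0.0113% to 0.0124% of counts in Virma cKO and 0.0791% to 0.0798% in WT, with 8 of 8 detected in each. The 12 fibroblast markers held 0.256% to 0.263% in Virma cKO and 0.0933% to 0.0945% in WT, all detected; their part in the result was not tested. The 6 epiblast markers held 0.0454% to 0.0471% in Virma cKO and 0.0676% to 0.0700% in WT, and the 8 parietal endoderm markers 0.142% to 0.148% in Virma cKO and 0.409% to 0.415% in WT. Of the 8 parietal endoderm markers, 3 were called higher and 3 lower, beside 15.1% and 18% of all genes. Their median log2 change was -0.04, so the fall of the summed share does not hold for each gene.

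In libraries labelled Mettl3 cKO the 4 genes were also lower, by less than 1 on the log2 scale and by similar amounts. Cubn had 17157 and 13314 counts in libraries labelled Mettl3 cKO, against 27192 and 23273 in WT. Lrp2 had 11145 and 8499 under the Mettl3 cKO label, against 19770 and 16421 in WT. Amn had 518 and 397 there, against 946 and 779 in WT. Dab2 had 3205 and 2234 there, against 4699 and 4024 in WT. The groups did not overlap for any of the 4, which was not counted over all genes. The log2 change was -0.57 ± 0.05 for Cubn (adjusted p = 5.68e-08), -0.72 ± 0.05 for Lrp2 (adjusted p = 1.16e-09), -0.75 ± 0.09 for Amn (adjusted p = 3.59e-06) and -0.53 ± 0.06 for Dab2 (adjusted p = 3.22e-06). All 4 were called lower, as were 1.44% of genes tested. Amn and Lrp2 kept their ratio closely, with 0.0465 and 0.0468 Amn counts per Lrp2 count under the Mettl3 cKO label and 0.0475 and 0.0479 in WT. Primitive endoderm markers held 0.0972% to 0.101% of counts under the Mettl3 cKO label and 0.129% to 0.131% in WT. Parietal endoderm markers held 0.496% to 0.508% under the Mettl3 cKO label and 0.572% to 0.598% in WT. Of these 8 markers 2 were called higher and 2 lower, beside 2.51% and 1.44% of all genes, with a median log2 change of 0.17. Fibroblast markers held 0.338% to 0.353% under that label and 0.232% to 0.246% in WT; their part in the result was not tested.

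Libraries labelled siIgf2bp3 had less of all 4 genes than siNC, and Amn stood out by size. Amn had 295 and 283 counts in libraries labelled siIgf2bp3, against 1274 and 850 in siNC. Cubn had 4868 and 5172 under the siIgf2bp3 label, against 9788 and 11631 in siNC. Lrp2 had 4310 and 4646 under that label, against 7740 and 8761 in siNC. The siNC libraries differed between themselves most in Amn. In none of the 4 did the groups overlap, which was not counted over all genes. Dab2 had 921 and 1014 under the siIgf2bp3 label, against 1351 and 1701 in siNC. The log2 change was -1.89 ± 0.18 for Amn (adjusted p = 3.22e-04), -1.12 ± 0.11 for Cubn (adjusted p = 3.32e-04), -0.91 ± 0.10 for Lrp2 (adjusted p = 7.60e-04) and -0.68 ± 0.12 for Dab2 (adjusted p = 0.0110). All 4 were called lower, as were 4.52% of genes tested. For Dab2 the call was lost without siIgf2bp3 replicate 1, at -0.67 with an adjusted p of 0.0579 by edgeR. Amn has a GC-rich transcript, with 62.9% G and C, above 98.9% of 11748 expressed genes, whereas Cubn has 46.4%, Lrp2 49.1% and Dab2 45.7%. Across genes, the log2 change under the siIgf2bp3 label ran with GC content at a Spearman rho of -0.471 (12611 genes of these 4 libraries, no test). With that trend removed from each library, the log2 changes were -1.50 for Amn, -1.23 for Cubn, -0.96 for Lrp2 and -0.80 for Dab2, all still called by edgeR. Primitive endoderm markers held 0.0464% to 0.0466% of counts under the siIgf2bp3 label and 0.0948% to 0.0996% in siNC, with 8 of 8 detected in each. The 8 parietal endoderm markers, all detected, held 0.333% to 0.338% under that label and 0.843% to 0.892% in siNC. The 6 epiblast markers, all detected, held 0.212% to 0.218% under the siIgf2bp3 label and 0.178% to 0.198% in siNC; their part in the result was not tested.

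**Figure D2:**
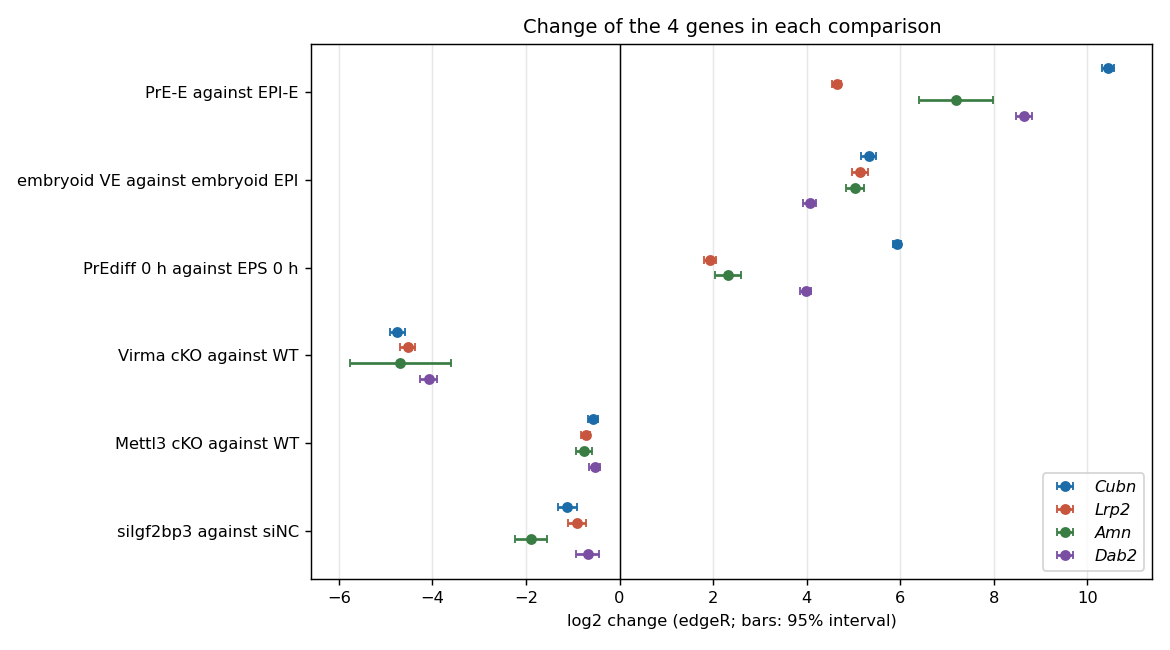
Log2 change of each gene in 6 comparisons, from edgeR fits; points are estimates and bars are 95% intervals. All 4 genes lie to the right of 0 in the 3 comparisons of cell state and to the left in the 3 perturbations, with Virma cKO lowest.

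The sizes of the responses were compared in 1 fit of the 12 perturbation libraries. The count columns of the Virma libraries are headed input, a word the other perturbation columns do not carry. The headers do not say what it means for those libraries. Preparation and perturbation therefore cannot be told apart in the differences that involve Virma. Each gene fell further in Virma cKO than in libraries labelled Mettl3 cKO, by a log2 difference of -4.28 ± 0.12 for Cubn, -3.91 ± 0.11 for Lrp2, -4.06 ± 0.44 for Amn and -3.65 ± 0.15 for Dab2. All 4 differences passed, as did 15.5% of genes tested in that direction. Against libraries labelled siIgf2bp3 the Virma cKO difference was -3.75 ± 0.12 for Cubn, -3.74 ± 0.11 for Lrp2, -2.94 ± 0.45 for Amn and -3.51 ± 0.15 for Dab2, and again all 4 passed, with 20.6% of genes. The siIgf2bp3 label and the Mettl3 cKO label differed in only part of the complex. The fall was larger under the siIgf2bp3 label for Cubn, by -0.54 ± 0.11 (edgeR adjusted p = 0.0157), and for Amn, by -1.13 ± 0.26 (edgeR adjusted p = 0.0318), where 0.661% of genes passed. For Lrp2 the difference was -0.17 ± 0.10 (edgeR adjusted p = 0.523) and for Dab2 -0.14 ± 0.14 (edgeR adjusted p = 0.777). The Cubn and Amn calls were lost when single libraries were left out. They were also lost with the replicate block (edgeR adjusted p = 0.0737 and 0.122) and with ribosomal scaling (edgeR adjusted p = 0.111 and 0.0680).

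Within libraries, the members' proportions shifted modestly under the perturbations. Lrp2 per Cubn was 1.03 and 1.13 in Virma cKO and 0.902 and 0.942 in WT. It was 0.638 and 0.650 under the Mettl3 cKO label and 0.706 and 0.727 in WT, and 0.885 and 0.898 under the siIgf2bp3 label and 0.753 and 0.791 in siNC. The pairs of libraries did not overlap, but the direction was upward in Virma cKO and under siIgf2bp3 and downward under Mettl3 cKO. Dab2 per Cubn was 0.797 and 1.10 in Virma cKO, against 0.576 and 0.604 in WT. Under the siIgf2bp3 label it was 0.189 and 0.196, against 0.138 and 0.146 in siNC. Dab2 thus gained on Cubn in both, and under the Mettl3 cKO label its ratio of 0.168 and 0.187 spanned the WT values of 0.173 and 0.173. Amn per Cubn was 0.0548 and 0.0607 under the siIgf2bp3 label, against 0.0731 and 0.130 in siNC. A ratio within a library does not remove the GC trend seen under that label, and Amn is GC-rich. With the trend removed, the log2 changes there were closer together, at -1.50 for Amn and -1.23 for Cubn. Amn per Cubn was also lower under the Mettl3 cKO label, at 0.0299 and 0.0302 against 0.0335 and 0.0348 in WT. In Virma cKO it was 0.00116 and 0.0194, from 0 and 9 Amn counts, and spanned the WT values of 0.0123 and 0.0150.

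**Figure D3:**
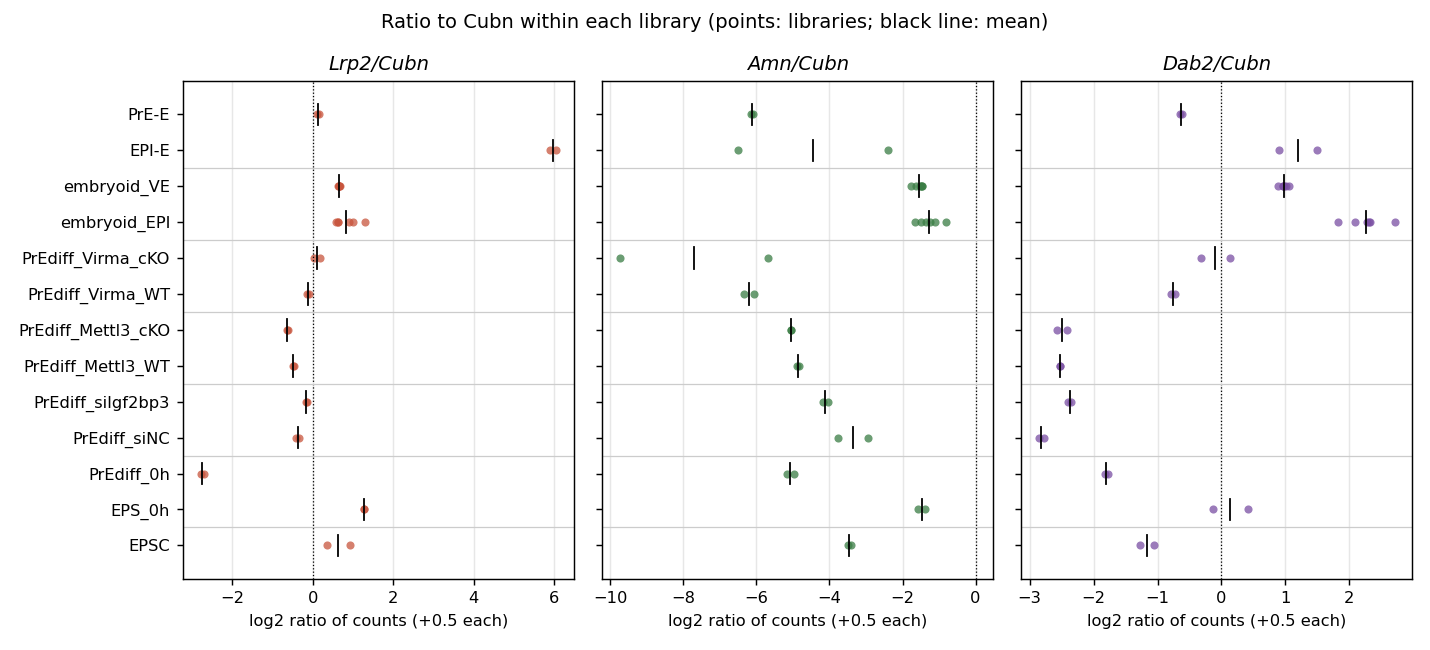
Log2 ratio of Lrp2, Amn and Dab2 counts to Cubn counts within each library (0.5 added to each count), in 13 groups; points are libraries and black lines are group means. The Lrp2 ratio is highest in EPI-E and lowest in PrEdiff at 0 h, and the Dab2 ratio is lower in embryoid VE than in embryoid EPI in every library.

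During actinomycin D the proportions of the genes changed, and Amn gained on Cubn up to 2 h in both states. CPM are shares of what remains in a library, so a share can rise while the amount falls, and ratios between members avoid that scale. In PrEdiff, Amn counts per Cubn count were 0.0278 and 0.0319 at 0 h, 0.0455 and 0.0479 at 1 h, 0.0681 and 0.0687 at 2 h, and 0.0440 and 0.0516 at 3 h. The ratio was higher at 1 h and higher again at 2 h, without overlap, and lower at 3 h. In EPS the same ratio was 0.336 and 0.386 at 0 h, 0.695 and 0.715 at 1 h, 0.806 and 1.11 at 2 h, and 0.197 and 0.216 at 3 h. Dab2 per Cubn moved little over the first 2 h in PrEdiff, where it was 0.286 ± 0.00649 at 0 h, 0.320 ± 0.00109 at 1 h and 0.323 ± 0.00690 at 2 h. Lrp2 per Cubn was 0.149 ± 0.00621, 0.154 ± 0.0121 and 0.162 ± 0.000945 at those times (SD, n = 2).

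On the CPM scale, PrEdiff lost a modest part of Cubn, Lrp2 and Dab2 in 2 h. Cubn was 378 and 366 CPM at 0 h, 314 and 307 at 1 h, 285 and 270 at 2 h, and 327 and 316 at 3 h. Dab2 was 106 and 106 CPM at 0 h, 101 and 98.0 at 1 h, 90.7 and 88.6 at 2 h, and 85.3 and 83.5 at 3 h. Lrp2 was 54.7 and 56.2 CPM at 0 h, 45.8 and 49.99 at 1 h, 46.3 and 43.6 at 2 h, and 45.1 and 45.7 at 3 h. Dab2 was lower at each time, whereas Cubn was higher at 3 h than at 2 h. Amn was 10.5 and 11.7 CPM at 0 h, 15.0 and 14.0 at 1 h, 19.6 and 18.4 at 2 h, and 14.3 and 16.3 at 3 h. The 2 h against 0 h log2 change was -0.42 ± 0.02 for Cubn (adjusted p = 9.09e-47), -0.30 ± 0.05 for Lrp2 (adjusted p = 4.37e-08), -0.25 ± 0.04 for Dab2 (adjusted p = 6.35e-10) and 0.77 ± 0.09 for Amn (adjusted p = 5.82e-15). The first 3 were called lower, as were 29.9% of genes tested, and Amn was called higher, as were 37.7%. Scaled to the summed counts of ribosomal protein genes the median of all genes moved to -0.99, and Amn had -0.31, below 0 but above that median.

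In EPS the genes were at low counts, and 3 of them were highest at 3 h. Cubn was 6.26 and 5.72 CPM at 0 h, 6.31 and 6.10 at 1 h, 5.25 and 5.43 at 2 h, and 17.1 and 15.0 at 3 h. Lrp2 was 15.0 and 13.8 CPM at 0 h, 10.1 and 9.73 at 1 h, 9.94 and 9.30 at 2 h, and 20.6 and 19.4 at 3 h. Dab2 was 5.69 and 7.59 CPM at 0 h, 6.68 and 6.71 at 1 h, 6.06 and 5.87 at 2 h, and 10.5 and 9.83 at 3 h. The 3 h libraries exceeded all earlier ones in these genes. Amn was 2.09 and 2.20 CPM at 0 h, 4.51 and 4.23 at 1 h, 5.81 and 4.37 at 2 h, and 3.66 and 2.94 at 3 h, so it turned down as the others turned up. From 2 h to 3 h the log2 change was 1.57 ± 0.11 for Cubn (adjusted p = 5.41e-35), 1.05 ± 0.09 for Lrp2 (adjusted p = 6.73e-24) and 0.76 ± 0.12 for Dab2 (adjusted p = 5.85e-09). The same change was called higher in 34.5% of genes tested. For Amn it was -0.61 ± 0.17 (adjusted p = 5.59e-04), with 31.6% of genes called lower, and the call was lost without EPS 2 h replicate 1, at -0.39 with an adjusted p of 0.0999 by edgeR. Scaled to ribosomal protein genes it was 0.027. From 0 h to 2 h, Amn had a log2 change of 1.21 ± 0.18 (adjusted p = 1.55e-10; 34.4% of genes higher), which turned to -0.072 (adjusted p = 0.712) when scaled to ribosomal protein genes, and Lrp2 fell by 0.58 ± 0.10 (adjusted p = 3.72e-08; 37.3% lower). Cubn was at -0.16 ± 0.14 and Dab2 at -0.16 ± 0.13, neither called. Primitive endoderm markers, all 8 detected, held 0.000827% to 0.000909% of counts in EPS at 2 h and 0.000776% to 0.000806% at 3 h. Macrophage markers held 0.00148% to 0.00175% at 2 h, with Ptprc at 0, and 0.00385% to 0.00439% at 3 h, and parietal endoderm markers 0.0481% to 0.0491% and 0.0644% to 0.0661%; their part in the result was not tested.

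The late turn in PrEdiff was smaller. From 2 h to 3 h the log2 change was 0.21 ± 0.03 for Cubn (adjusted p = 6.00e-14; 18.4% of genes higher) and -0.31 ± 0.09 for Amn (adjusted p = 0.00223; 21% lower). Without PrEdiff 3 h replicate 1 the Amn change was -0.22 and was not called (edgeR adjusted p = 0.130). Lrp2 was at 0.02 ± 0.06 and Dab2 at -0.09 ± 0.04, neither called. Across genes, the 2 h against 0 h change ran with GC content at a Spearman rho of 0.288 in EPS and 0.288 in PrEdiff, and the 3 h against 2 h change at -0.385 and -0.357 (13808 genes, no test). Amn is the GC-rich member. With the trend removed from each library, its 2 h against 0 h change was 0.92 in EPS and 0.53 in PrEdiff, both still called by edgeR. Its 3 h against 2 h change was then -0.20 in EPS (adjusted p = 0.295) and -0.090 in PrEdiff (adjusted p = 0.476). In EPS the corrected 3 h against 2 h change stayed called for Cubn at 1.35, Lrp2 at 0.93 and Dab2 at 0.52.

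A straight line over the 4 times described these courses poorly, since they turned at 2 h. In EPS the slope per hour on the log2 scale was called for Cubn at 0.44 ± 0.10 (edgeR adjusted p = 0.00264) and Dab2 at 0.18 ± 0.06 (edgeR adjusted p = 0.0274), where 18.2% of genes had a called rise. It was not called for Lrp2 at 0.15 ± 0.09 or Amn at 0.19 ± 0.12. The Dab2 call was lost without EPS 0 h replicate 1 (edgeR adjusted p = 0.0961) and without EPS 3 h replicate 1 or 2 (edgeR adjusted p = 0.165 and 0.114). It was also lost with library totals, at 0.072 (adjusted p = 0.510), and the sign turned with ribosomal scaling, at -0.039. Without the 3 h libraries the EPS slope was -0.038 for Cubn and -0.038 for Dab2. In PrEdiff edgeR called no slope of the 4, with Cubn at -0.08 ± 0.09, Lrp2 at -0.10 ± 0.09, Dab2 at -0.12 ± 0.06 and Amn at 0.18 ± 0.11, and 0 of 4 had an unadjusted p under 0.05. DESeq2 called Dab2 there (adjusted p = 0.00914), and 36.9% of all genes were called by edgeR at the adjusted threshold. The PrEdiff slope minus the EPS slope was called by edgeR for none of the 4 and for 1.27% of genes. It was -0.52 ± 0.13 for Cubn (edgeR adjusted p = 0.0861) and -0.29 ± 0.08 for Dab2 (edgeR adjusted p = 0.109). These 2 of 4 had an unadjusted p under 0.05, a threshold for which the share of all genes is not given here. By DESeq2 both differences passed, at adjusted p of 0.0129 and 5.94e-04. Cubn shares 368 exonic bases with the antisense gene Gm13270 in GENCODE vM21, and whether counting used strand is not given in the sources used here, so reads of the pair cannot be told apart there.

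**Figure D4:**
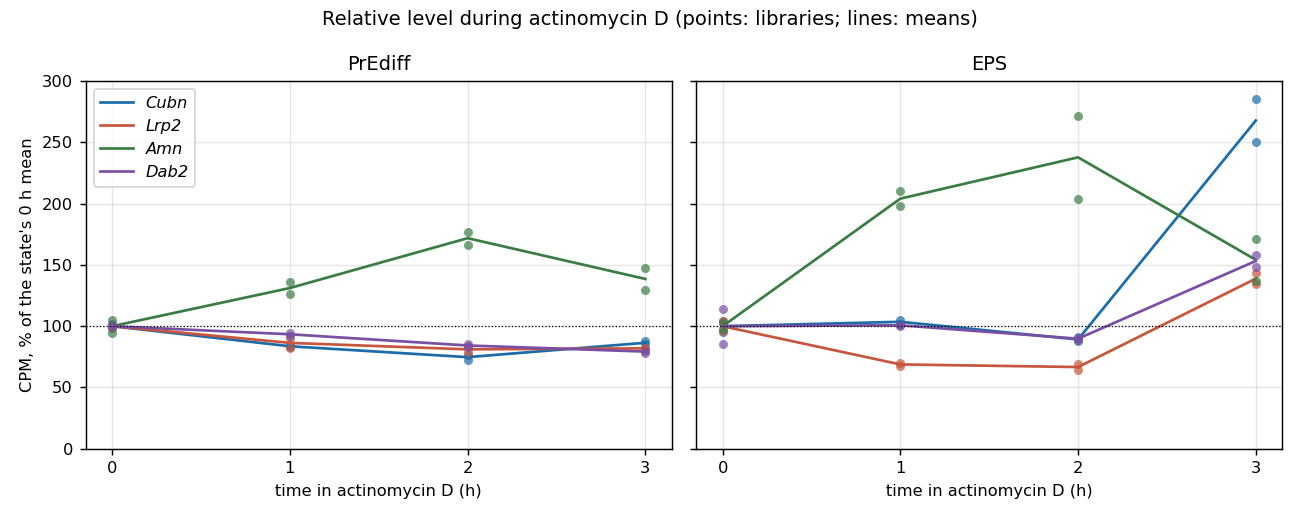
CPM of each gene as a percentage of its state's mean at 0 h, against hours in actinomycin D, for PrEdiff (left) and EPS (right); points are libraries and lines are means. On this scale Amn lies above 100% at 2 h in both panels, although ribosomal scaling turns its log2 change to -0.31 in PrEdiff and -0.072 in EPS; the other genes lie near or below 100% at 2 h, and in EPS they are above it at 3 h.

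Other genes of the uptake route were counted in 4 lists, each read beside the share of all genes called. That share was 28.3% higher and 29.5% lower in PrE-E, 34.5% and 38% in embryoid VE, and 37.6% and 42.9% in PrEdiff against EPS at 0 h. It was 15.1% higher and 18% lower in Virma cKO, 2.51% and 1.44% under the Mettl3 cKO label, and 2.79% and 4.52% under the siIgf2bp3 label. The list of ligands, their carriers and the receptor chaperone held 16 genes. In PrE-E against EPI-E it had 9 of 11 tested genes higher and 1 lower, with a median log2 change of 2.90 beside -0.03 for all genes. In embryoid VE against EPI, 13 of 14 tested were higher and 1 lower, with a median of 3.98 beside -0.05. The low-count filter keeps a gene with enough counts in only 1 of the groups. A gene near 0 in epiblast can thus enter only by being high in endoderm, so these counts and medians are not independent of the filter. Lrpap1, the chaperone that keeps megalin free of ligand on its way to the surface, changed by 5.66 ± 0.06 in PrE-E and by 3.78 ± 0.07 in embryoid VE. It also changed by -1.39 ± 0.06 in Virma cKO (adjusted p = 2.22e-18), -0.29 ± 0.06 under the Mettl3 cKO label (adjusted p = 0.00346) and -0.77 ± 0.09 under the siIgf2bp3 label (adjusted p = 0.00134). It was the only gene of its list called under the last 2 labels, of 9 and 8 tested. In Virma cKO, Apoe at -0.73 and Clu at -1.03, both secreted lipoprotein components, were also called.

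The clathrin coat and adaptor list had 20 of 28 genes higher and 3 lower in PrE-E, with a median of 1.08. In embryoid VE it had 20 of 26 higher and 5 lower, with a median of 1.04. Myo6, the motor that carries coated vesicles inward and binds Dab2, changed by 7.49 ± 0.10 in PrE-E and 4.40 ± 0.12 in embryoid VE. It changed by -1.97 ± 0.15 in Virma cKO (adjusted p = 1.85e-12), by -0.57 ± 0.11 under the Mettl3 cKO label (adjusted p = 0.00217) and by -0.99 ± 0.12 under the siIgf2bp3 label (adjusted p = 0.00134). Cltc, the clathrin heavy chain, was at -0.83 in Virma cKO and 2.31 in PrE-E. In Virma cKO the list had 11 of 28 lower and 3 higher, with a median of -0.19 beside 0.02 for all genes. Under the Mettl3 cKO label 1 of 28 was lower and 1 higher, and under the siIgf2bp3 label 2 of 28 were lower, counts near the share of all genes.

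For endosomes, recycling and lysosomes, 20 of 27 genes were higher in PrE-E, with a median of 1.498. In embryoid VE 20 of 27 were higher and 3 lower, with a median of 1.81. Virma cKO had 11 of 27 lower and 3 higher, with a median of -0.31, the Mettl3 cKO label 3 of 27 lower and the siIgf2bp3 label 2 of 27 lower, beside 18%, 1.44% and 4.52% of all genes. Atp6v0a1, a subunit of the proton pump that acidifies these compartments, was called lower in all 3 perturbations, at -1.11 ± 0.13, -0.28 ± 0.08 and -0.97 ± 0.10 in the order Virma cKO, Mettl3 cKO label and siIgf2bp3 label. The other receptors of the LDL receptor family and scavenger class moved both ways. They had 7 of 14 higher and 3 lower in PrE-E, and 6 of 13 higher and 2 lower in embryoid VE. In Virma cKO 1 of 16 was higher and 4 lower, under the Mettl3 cKO label the only calls were 2 of 15 higher, and under the siIgf2bp3 label they were 3 of 16 lower. Lrp1, another giant endocytic receptor of the family, was at -0.45 ± 0.16 in PrE-E, -2.18 ± 0.54 in embryoid VE, 1.37 ± 0.07 in Virma cKO and 0.44 ± 0.06 under the Mettl3 cKO label, all called and opposite in sign to Lrp2. It was at 0.78 ± 0.05 in PrEdiff against EPS at 0 h, called and of the same sign as Lrp2, and at -0.10 ± 0.11 under the siIgf2bp3 label, not called. In embryoids Lrp1 was low, at 1.04 ± 0.714 CPM in VE and 5.48 ± 1.15 CPM in EPI (SD, n = 6 each). In PrEdiff against EPS at 0 h, 12 of 16 of these receptors were higher and 2 lower, and 6 of 10 ligand genes were higher and 3 lower. Of the coat genes 14 of 28 were higher and 9 lower, and of the endosome genes 16 of 27 were higher and 8 lower, beside 37.6% and 42.9% of all genes.

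In actinomycin D the lists also shifted, and members are read beside them. In EPS from 2 h to 3 h, 18 of 28 coat genes were higher and 8 lower, and 19 of 27 endosome genes were higher and 6 lower, beside 34.5% and 31.6% of all genes, with medians of 0.39 and 0.46 beside 0.01 for all genes. The ligand list had 6 of 10 lower and 1 higher in the same step. From 0 h to 2 h that list had 8 of 10 higher and 1 lower in EPS, beside 34.4% and 37.3% of all genes. In PrEdiff it had 9 of 10 higher, the only calls, beside 37.7% higher and 29.9% lower.

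Likeness of pattern was described by Pearson's r over 18 group means of log2(CPM + 1), centred within each of 6 tables. The points share libraries and tables, and tables of 2 groups give mirrored points, so r is a description without a test. Cubn and Dab2 were nearest to each other, at 0.994, with Dab2 ranked 2 of 12057 genes for Cubn and Cubn ranked 1 for Dab2. Amn and Lrp2 had 0.952, and Lrp2 and Cubn 0.912, where Lrp2 ranked 375 for Cubn. The other pairs had 0.915 for Cubn and Amn, 0.924 for Lrp2 and Dab2, and 0.934 for Amn and Dab2. Nearest to Cubn were Chn2, Dab2, Klb, Lamb1 and Lama1, at 0.995 to 0.992. Nearest to Dab2 after Cubn were Chn2, Nostrin, Nrg1 and Srgn. Nearest to Lrp2 were Dgkk, Prdm6, Exoc6, Rmc1 and Tfec, at 0.983 to 0.974, and nearest to Amn were Neu1, Rrbp1, Hopx, Rps6ka1 and P3h2, at 0.984 to 0.981. Nearest to the mean of the 4 were Tmem144, Nostrin, Rhpn1, Myo5b and Nxf7. Without the actinomycin D table, 10 group means remained and Cubn and Dab2 had 0.999, but of the 5 genes named for each pattern only 0 to 2 were kept.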

How the data were processed

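Count tables of 46 libraries in 19 groups were used, with 2 libraries per group and 6 per embryoid part. The authors deposited whole-number counts of reads per gene, not normalised. Per the submitters' processing notes, the tools were STAR 2.7.11b, Subread, Trim Galore, DESeq2 and FastQC 0.12.1, and the build was mm39. Whether counting used strand is not given in the sources used here. Libraries of total RNA were made with 2 kits, per the labels' protocols, and which library used which kit is not stated. The 4 genes and all gene lists were chosen with earlier results of these data known. In the EPSC table, 40 rows of 19 repeated symbols were left out.

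Each table was fitted as a whole with edgeR 4.0.16 in R 4.3.3 (TMM scaling, filterByExpr with a minimum count of 10 and total of 15, robust quasi-likelihood fit, prior count 2), and p-values were adjusted over all genes tested by the Benjamini-Hochberg method. The SE is the log2 change divided by the square root of its F statistic. The actinomycin D table was fitted over its 16 libraries, by group means and by a straight line per state. Contrasts of 2 h against 0 h and 3 h against 2 h were added after the straight lines were seen. The 12 perturbation libraries were fitted together to compare responses. Member ratios had 0.5 added to each count, and in embryoids were tested by exact two-sided permutation. The fits were tested on simulated data. Transcript length and GC content came from GENCODE vM21 (GRCm38), which gave a value for 97.6% to 97.8% of genes tested, and promoters from RefSeq. Alternatives were other scalings, filters, DESeq2 1.42.0, a replicate block, GC correction and leaving out each library. Named genes were the 4 members in every comparison, up to 3 genes of lowest adjusted p per list and comparison, the 5 genes of highest likeness, targets and markers; Lrp1, Lrpap1, Myo6 and Atp6v0a1 were followed through all comparisons after their values were seen. Library totals bound the precision of the low counts: Amn had under 100 counts in EPS and EPSC libraries.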

Additional observations from a re-analysis of the deposited data

Results flagged for a closer look

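These results are listed because a test of the difference between perturbation responses passed for a member. The Virma cKO response was larger than that under the Mettl3 cKO label by -4.28 for Cubn, -3.91 for Lrp2, -4.06 for Amn and -3.65 for Dab2, on the log2 scale. Against the siIgf2bp3 label the Virma cKO response differed by -3.75 for Cubn, -3.74 for Lrp2, -2.94 for Amn and -3.51 for Dab2. Under the siIgf2bp3 label the fall exceeded that under the Mettl3 cKO label by -0.54 for Cubn and -1.13 for Amn, but both calls were lost when single libraries were left out (edgeR adjusted p up to 0.123 and 0.183), with the replicate block and with ribosomal scaling. The targets Mettl3 and Igf2bp3 were not lower under their own labels, and only the Virma columns are headed input. In 20 sets of embryoid libraries checked for a single library far from the rest, for the 4 members and their ratios, none was found, where chance gives about 1 in 20.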

How the results depend on the processing

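The 4 members kept their direction and their call under all scalings, filters and DESeq2 in the 3 cell-state comparisons and the 3 perturbations, and under GC correction in the 3 perturbations, where alone of these it was run. Only a left-out library ended 1 of these calls. Scaling to library totals gave an EPS slope of 0.072 for Dab2 and a PrEdiff slope of -0.26 for Dab2, now called. It gave a 2 h against 0 h change in EPS of -0.53 for Cubn and -0.52 for Dab2, both called. For 3 h against 2 h in PrEdiff it gave -0.037 for Lrp2, a change of sign, and -0.14 for Dab2, called. Scaling to ribosomal protein genes moved the median of all genes to -1.28 at 2 h in EPS and -0.99 in PrEdiff. EPS slopes were then 0.23 for Cubn, -0.076 for Lrp2, -0.028 for Amn and -0.039 for Dab2, the last 3 changing sign. PrEdiff slopes were -0.45 for Cubn, -0.47 for Lrp2, -0.20 for Amn, a change of sign, and -0.49 for Dab2, all called. The 2 h against 0 h change was -1.46 for Cubn and -1.46 for Dab2 in EPS, and Amn turned to -0.072 in EPS and -0.31 in PrEdiff. Amn at 3 h against 2 h in EPS was 0.027. The siIgf2bp3 minus Mettl3 difference was -0.49 for Cubn and -1.07 for Amn, neither called. Ribosomal scaling left 267 genes called for the Mettl3 cKO label, 9153 PrEdiff slopes, 2 slope differences and 93 siIgf2bp3 minus Mettl3 differences.

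Without the 3 h libraries, EPS slopes were -0.038 for Cubn, -0.27 for Lrp2, 0.61 for Amn and -0.038 for Dab2; PrEdiff slopes were -0.25 for Cubn, -0.19 for Lrp2, 0.34 for Amn and -0.17 for Dab2, and the slope difference of Lrp2 was 0.076. Genes called were 9442, 8381 and 926 for EPS, PrEdiff and the difference. From 0 h and 3 h alone, per hour, EPS gave 0.16 for Lrp2 and 0.20 for Amn, PrEdiff -0.069 for Cubn, -0.10 for Lrp2, 0.15 for Amn and -0.11 for Dab2, and the difference -0.54 for Cubn, -0.25 for Lrp2 and -0.31 for Dab2, all called, with 10043, 9552 and 6268 genes. From 0 h and 2 h alone, EPS gave -0.081 for Cubn, -0.29 for Lrp2, 0.60 for Amn and -0.078 for Dab2, PrEdiff -0.21 for Cubn, -0.15 for Lrp2, 0.39 for Amn and -0.12 for Dab2, and the difference 0.14 for Lrp2, with 10130, 9551 and 4478 genes. These courses turn at 2 h, which a straight line cannot follow. GC correction gave 0.035 for Cubn and 0.064 for Dab2 at 2 h in EPS, and -0.20 for Amn in EPS, -0.090 for Amn and -0.13 for Dab2 in PrEdiff at 3 h against 2 h. It called 1097 genes under the Mettl3 cKO label, against 518, and 1965 under siIgf2bp3, against 945.

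DESeq2 gave 247 genes for the Mettl3 cKO label, 528 slope differences and 419 siIgf2bp3 minus Mettl3 differences. It called the PrEdiff slope of Dab2 at -0.12 and the slope differences of Cubn at -0.51 and Dab2 at -0.30. With no low-count filter, 1699 genes were called under siIgf2bp3 and 422 siIgf2bp3 minus Mettl3 differences. The labels do not say whether replicate numbers pair libraries. Same-numbered embryoid libraries had deviations correlated at -0.017 to 0.016, which shows no pairing but does not settle the question. With the replicate block, 1467 genes were called under siIgf2bp3 and 40 siIgf2bp3 minus Mettl3 differences, with Cubn at -0.53 and Amn at -1.10, neither called. Paired by replicate, the embryoid differences stayed at -1.27 for Dab2/Cubn, -1.09 for Dab2/Lrp2 and -0.99 for Dab2/Amn. Each had an exact sign-flip p of 0.03125, the smallest that 6 pairs allow, and 0.0625 after adjustment over the 6 ratios. These calls were lost at a p that could go no lower, so the loss does not show that they depend on pairing. The Mettl3 libraries deviated with a correlation of -0.135 between same-numbered replicates. With their numbers crossed in the block, 1421 genes were called. Of the 5 nearest genes, 3 for Lrp2 and 2 for Amn were kept with a pseudocount of 0.25, and without the actinomycin D libraries the number kept was 1 for Cubn, 0 for Lrp2, 1 for Amn, 2 for Dab2 and 1 for the mean. The cause of these moves was not tested.

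Leaving out single libraries gave these ranges. Under siIgf2bp3, Dab2 was at -0.86 to -0.50 and genes called were 242 to 4936. For siIgf2bp3 minus Mettl3, Cubn was at -0.67 to -0.39, Amn at -1.37 to -0.82 and Dab2 at -0.31 to 0.059, with 37 to 985 genes, and Virma minus Mettl3 had 1946 to 3525 genes. The EPS slope of Dab2 was 0.11 to 0.26, not called without 3 of the libraries. The slope difference was -0.59 to -0.40 for Cubn, -0.14 to 0.10 for Amn and -0.37 to -0.23 for Dab2, with 89 to 206 genes, and PrEdiff slopes called were 3150 to 5466. At 2 h against 0 h in EPS, Dab2 was at -0.34 to 0.067. At 3 h against 2 h, Amn was at -0.80 to -0.39 in EPS and -0.40 to -0.22 in PrEdiff, not called at the upper end of each, where Lrp2 was at -0.030 to 0.060. The embryoid Amn/Cubn difference was -0.35 to -0.19. Where a comparison had 2 libraries per group, the lone library was assumed to vary like the others. Depth limits Amn most, since it had 9 and 0 counts in Virma cKO and 11 and 0 in EPI-E.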
